A study of Mus musculus with 10 samples.

Results

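The genes described here are 10 chemokine and chemokine receptor genes, the ligands Ccl3, Ccl4, Ccl6, Ccl9 and Cxcl2 and the receptors Ccr1, Ccr2, Cxcr2, Cxcr4 and Cx3cr1. They were chosen by symbol from the 18193 genes annotated, and every probe set that the platform annotation assigns to one of those symbols was used, which gave 17 of the 45101 probe sets on the array. The 17 probe sets comprise 7 for the ligands and 10 for the receptors. Their signals were read on all 10 arrays of the series, each hybridized with RNA from primary mouse marrow progenitors that an introduced oncogene had immortalized and that were derived in Stem Cell Factor without GM-CSF. The groups were 3 clones immortalized by HoxA9, a homeodomain transcription factor, 3 clones by HoxA9 together with its cofactor Meis1, 3 clones by NUP98-NSD1, a leukaemia fusion of a nucleoporin with a histone methyltransferase, and 1 culture by MLL-ENL, a fusion of a histone methyltransferase with a transcription elongation protein. The labels give neither the vector or promoter that drove each oncogene, nor the strain, nor how many animals the clones of a group represent, and the MLL-ENL label names no clone. All p-values below therefore measure only the spread between these clones.

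Chemokines are small secreted proteins that guide leukocytes, and most of their receptors pass the signal through the G protein subunit Gnai2 to actin and adhesion. In the marrow, Cxcr4 on progenitors and neutrophils holds them near stromal cells that make Cxcl12, Cxcr2 draws mature neutrophils out into blood, and Ccr2 does the same for monocytes. Ccl3 and Ccl4 are inflammatory ligands that monocytes and macrophages make, and Ccl3 acts through Ccr1 among other receptors. Ccl6 and Ccl9 are rodent ligands of Ccr1 that myeloid cells make, and Cxcl2 is a ligand of Cxcr2.

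Signals are arbitrary intensities scaled by the authors to a common trimmed mean, and levels are compared only within a probe set, since probe sets differ in brightness for reasons other than RNA amount. A probe set was tested when its signal exceeded 369, the 40th percentile of all values, on at least 3 of the 10 arrays, and 30945 probe sets met this. A call means an adjusted p under 0.05 in limma over all of them, and fold changes are on the log2(signal + 32) scale, which understates changes of dim probe sets. Where every array of a group lay below 369, the fold is given as a lower bound against that level. Of the 17 probe sets, 16 were tested, covering 9 of the 10 genes. The 1 probe set of Cxcl2 passed that level on 1 array and was not tested. Groups without overlap were common over all 30945, at 43.8% for NUP98-NSD1 against HoxA9 and 45.0% against HoxA9+Meis1. The shares were 28.6% for HoxA9+Meis1 against HoxA9 and 56.6% for MLL-ENL against NUP98-NSD1. Of the 16, 9, 9, 9 and 14 did not overlap in that order.

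The introduced genes were measured first. Hoxa9 on 1421579_at read 27259, 43395 and 59375 in the HoxA9 clones, 91143, 89613 and 103499 in the HoxA9+Meis1 clones, 6783, 6872 and 8481 in the NUP98-NSD1 clones and 6478 in MLL-ENL. The other Hoxa9 probe set, 1455626_at, ran the opposite way, between 25.7 and 50.8 in both HoxA9 groups, between 31804 and 36931 in NUP98-NSD1 and 35209 in MLL-ENL. Meis1 on 1450992_a_at read 16.7 to 27.9 in HoxA9, 558 to 687 in HoxA9+Meis1, 4214 to 6267 in NUP98-NSD1 and 10160 in MLL-ENL. The Meis1 probe sets 1443260_at and 1459423_at showed no such rise. They averaged 826 and 718 in HoxA9, 744 and 620 in HoxA9+Meis1 and 802 and 677 in NUP98-NSD1, and read 707 and 529 in MLL-ENL. All 9 listed granulocyte-monocyte progenitor genes were tested. Of these, 6 were called higher and 1 lower in NUP98-NSD1 than in HoxA9, where 13.1% and 18.2% of all genes were. Against HoxA9+Meis1, 5 were higher and 1 lower, where 14.2% and 18.5% were. Myeloperoxidase, Mpo, was bright on all arrays, and its 3 clone groups did not overlap. It read 126200 to 142660 in HoxA9, 145387 to 151814 in HoxA9+Meis1, 196759 to 237929 in NUP98-NSD1 and 221677 in MLL-ENL. Cd34, a progenitor surface protein, read 97.8, 93.9 and 1845 in HoxA9, below the tested level in clones 1 and 2. Its other readings were 48216 to 50766 in HoxA9+Meis1, 12432 to 32330 in NUP98-NSD1 and 2723 in MLL-ENL. Neutrophil elastase, Elane, read 106958 to 116367 in HoxA9, 13902 to 25137 in HoxA9+Meis1, 147012 to 199729 in NUP98-NSD1 and 198245 in MLL-ENL. The array medians ran from 440.3 to 660.3. The 18 hybridization control probe sets averaged 13.18 to 13.42 in log2 on the HoxA9 and HoxA9+Meis1 arrays and 14.01 to 14.13 on the NUP98-NSD1 and MLL-ENL arrays, so in NUP98-NSD1 against either HoxA9 group the array set and the oncogene cannot be told apart. The ratio of 3′ to 5′ signal, a sign of RNA quality, also split that way, at 1.09 to 1.17 against 1.18 to 1.43 for Actb and 0.777 to 0.836 against 0.849 to 0.932 for Gapdh, and its part in the results was not tested. The comparisons of HoxA9+Meis1 with HoxA9 and of MLL-ENL with NUP98-NSD1 stay within a set. The tests of MLL-ENL assume that its 1 array varies as the clones of the other groups do. In cultures measured in bulk, fewer cells that make a transcript and less of it per cell cannot be told apart.

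The 250 bases before the RefSeq start of 5 genes whose signals separated the groups are shown to set the 4 promoters with an Ets core match beside that of Cx3cr1, which has none of the motifs searched. Each is on the gene's own strand, 5′ to 3′, in build GRCm38.p6: Ccl3 is at chr11:83649379-83649628 on the minus strand, Ccl6 at chr11:83593088-83593337 on the minus strand, Ccl9 at chr11:83578637-83578886 on the minus strand, Cxcr2 at chr1:74153744-74153993 on the plus strand and Cx3cr1 at chr9:120068297-120068546 on the minus strand. Capitals mark motif matches.
Ccl3: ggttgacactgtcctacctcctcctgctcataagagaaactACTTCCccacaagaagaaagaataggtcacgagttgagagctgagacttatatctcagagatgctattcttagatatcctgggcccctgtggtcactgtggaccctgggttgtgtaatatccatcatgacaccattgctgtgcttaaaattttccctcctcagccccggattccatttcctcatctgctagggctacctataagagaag
Ccl6: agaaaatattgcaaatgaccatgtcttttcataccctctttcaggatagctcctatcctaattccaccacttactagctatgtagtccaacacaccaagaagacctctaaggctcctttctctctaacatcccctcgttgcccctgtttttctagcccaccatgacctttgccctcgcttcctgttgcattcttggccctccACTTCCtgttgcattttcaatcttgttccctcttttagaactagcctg
Ccl9: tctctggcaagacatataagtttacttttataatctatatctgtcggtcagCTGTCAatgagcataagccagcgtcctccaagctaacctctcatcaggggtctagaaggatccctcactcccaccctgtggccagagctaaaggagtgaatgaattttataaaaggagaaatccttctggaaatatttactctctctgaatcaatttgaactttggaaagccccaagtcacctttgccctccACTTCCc
Cxcr2: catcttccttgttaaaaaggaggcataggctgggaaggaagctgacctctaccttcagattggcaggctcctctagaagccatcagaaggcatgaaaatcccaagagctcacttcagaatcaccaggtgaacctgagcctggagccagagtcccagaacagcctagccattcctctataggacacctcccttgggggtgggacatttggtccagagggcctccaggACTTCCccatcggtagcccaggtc
Cx3cr1: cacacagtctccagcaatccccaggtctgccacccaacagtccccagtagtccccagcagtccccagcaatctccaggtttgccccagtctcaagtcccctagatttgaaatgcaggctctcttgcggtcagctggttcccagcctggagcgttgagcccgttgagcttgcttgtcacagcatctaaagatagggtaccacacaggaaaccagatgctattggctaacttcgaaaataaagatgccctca
The motifs searched, on both strands, were the Ets core GGAAGT, the Meis core TGACAG, a Hox-Pbx composite TGATTTAT, a C/EBP site TTGCNNCAA and an NF-kB site of GGGA, any base and TTTCC. RefSeq promoters were given for 9 of the 10 genes, all but Ccl4. The Ets core was in 4 of the 9, each time as its reverse complement, against 19.7% of all 32851 promoters of this length. It lay at -209 to -204 in Ccl3, -48 to -43 in Ccl6, -7 to -2 in Ccl9 and -24 to -19 in Cxcr2, counted from the base before the start. The Meis core was in 1 of the 9, Ccl9 at -199 to -194, against 15.9% of all promoters, and it does not overlap the Ets core there. The NF-kB site was in 1, Cxcl2 at -97 to -88, against 0.356%. The Hox-Pbx composite (0.837% of all) and the C/EBP site (1.74% of all) were in none of the 9. Like Cx3cr1, the genes Ccr1, Ccr2 and Cxcr4, whose promoters are not shown, had no match to any motif searched. Ccr2 and Cxcr4 also held called differences between groups. A match describes these letters in this window, and binding was not measured.

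Among the inflammatory ligands, Ccl3 stood highest in the HoxA9+Meis1 clones. Ccl3 (1419561_at) read 2451, 4841 and 3584 in HoxA9 (3626 ± 1196, SD, n = 3), 15779, 11904 and 24101 in HoxA9+Meis1 (17261 ± 6232, SD, n = 3), 4746, 5349 and 3060 in NUP98-NSD1 (4385 ± 1186, SD, n = 3) and 6947 in MLL-ENL. The lowest HoxA9+Meis1 clone lay above all 7 other arrays, and the HoxA9 and NUP98-NSD1 clones overlapped. Ccl3 was 4.7-fold higher in HoxA9+Meis1 than in HoxA9 (log2 difference 2.23 ± 0.30 SE, adjusted p = 0.00176) and 3.85-fold lower in NUP98-NSD1 than in HoxA9+Meis1 (log2 difference -1.95 ± 0.30 SE, adjusted p = 0.00115). Both calls held under every alternative processing tried and without any one clone. NUP98-NSD1 and HoxA9 did not differ beyond the spread between clones (log2 difference 0.29, 95% interval -0.39 to 0.96, adjusted p = 0.506), nor did MLL-ENL and NUP98-NSD1 (log2 difference 0.70, adjusted p = 0.435).

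Ccl4, which lies beside Ccl3 in the genome and is often made with it, was lowest in NUP98-NSD1. Ccl4 (1421578_at) read 2561, 2767 and 2442 in HoxA9 (2590 ± 165, SD, n = 3), 4743, 3214 and 4493 in HoxA9+Meis1 (4150 ± 820, SD, n = 3), 1381, 1206 and 1526 in NUP98-NSD1 (1371 ± 160, SD, n = 3) and 2530 in MLL-ENL. None of the 3 clone groups overlapped, and the MLL-ENL array lay within the HoxA9 range. Ccl4 was 1.87-fold lower in NUP98-NSD1 than in HoxA9 (log2 difference -0.91 ± 0.17 SE, adjusted p = 0.00393) and 2.95-fold lower than in HoxA9+Meis1 (log2 difference -1.56 ± 0.17 SE, adjusted p = 0.000201). Its difference between HoxA9+Meis1 and HoxA9, 0.66 ± 0.17 SE in log2, missed the threshold at an adjusted p of 0.0502. It passed under quantile normalization (0.0493), with an offset of 100 (0.0477), a filter at the 60th percentile (0.0349) or 1 probe set per gene (0.044). It also passed with robust estimation (0.0451), with those groups alone (0.0497) and without HoxA9+Meis1 clone 2 (log2 difference 0.83, adjusted p = 0.0271). So the NUP98-NSD1 clones sat with the HoxA9 clones for Ccl3 and below them for Ccl4. MLL-ENL was 0.88 higher than NUP98-NSD1 in log2, not called at an adjusted p of 0.0806, and called without NUP98-NSD1 clone 3 (log2 difference 0.95, adjusted p = 0.0442).

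The Ccr1 ligands Ccl6 and Ccl9 gave unlike readings, and the probe sets within each gene differed. Ccl6 on 1417266_at read 54.7, 383 and 320 in HoxA9 (253 ± 174, SD, n = 3), 225, 165 and 336 in HoxA9+Meis1 (242 ± 86.5, SD, n = 3), 2658, 1529 and 1784 in NUP98-NSD1 (1990 ± 592, SD, n = 3) and 1092 in MLL-ENL. All 4 fusion arrays were above all 6 HoxA9 and HoxA9+Meis1 arrays. It was 8.44-fold higher in NUP98-NSD1 than in HoxA9 (log2 difference 3.08 ± 0.56 SE, adjusted p = 0.00286), and without the low HoxA9 clone 1 the log2 difference was 2.36 (adjusted p = 0.00284). HoxA9 clones 1 and 3 lay below 369, so this fold rests partly on signals under that level. Against HoxA9+Meis1, Ccl6 was at least 4.9-fold higher on this probe set (adjusted p = 0.00354). The other Ccl6 probe set, 1420249_s_at, whose suffix marks probes that can match more than 1 transcript, showed no such step. It read 342, 467 and 1028 in HoxA9, 714, 706 and 799 in HoxA9+Meis1, 732, 734 and 659 in NUP98-NSD1 and 369 in MLL-ENL, and was called in none of the 4 comparisons (adjusted p = 0.508 against HoxA9 and 0.92 against HoxA9+Meis1 for NUP98-NSD1). The rise of Ccl6 in NUP98-NSD1 therefore rests on 1 of its 2 probe sets.

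Ccl9 was bright everywhere and lower in NUP98-NSD1 on 1 of its 2 probe sets. On 1448898_at it read 49650, 51041 and 49798 in HoxA9 (50163 ± 764, SD, n = 3), 42189, 49122 and 47603 in HoxA9+Meis1 (46305 ± 3644, SD, n = 3), 23718, 24789 and 23034 in NUP98-NSD1 (23847 ± 884, SD, n = 3) and 37777 in MLL-ENL. The NUP98-NSD1 clones lay below all 7 other arrays, while the HoxA9+Meis1 clones lay just below the HoxA9 clones. Ccl9 was 2.1-fold lower in NUP98-NSD1 than in HoxA9 (log2 difference -1.07 ± 0.08 SE, adjusted p = 2.14e-05) and 1.94-fold lower than in HoxA9+Meis1 (log2 difference -0.95 ± 0.08 SE, adjusted p = 3.65e-05). It was 1.58-fold higher in MLL-ENL than in NUP98-NSD1 (log2 difference 0.66 ± 0.11 SE, adjusted p = 0.00958), a call that was lost with no intensity trend (0.0708) or with those groups fitted alone (0.0919). The brighter probe set, 1417936_at, read 66541, 71717 and 67577 in HoxA9, 63479, 65687 and 71087 in HoxA9+Meis1, 60351, 64363 and 49332 in NUP98-NSD1 and 76722 in MLL-ENL. Its log2 differences for NUP98-NSD1 were -0.25 against HoxA9 (adjusted p = 0.0776) and -0.21 against HoxA9+Meis1 (adjusted p = 0.126), not called in either. Under quantile normalization both passed, at -0.52 (adjusted p = 0.0053) and -0.32 (adjusted p = 0.0403), and without NUP98-NSD1 clone 2 the first passed at -0.33 (adjusted p = 0.0419).

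Cxcl2, the neutrophil-attracting ligand of Cxcr2, was dim on every array. It read 197, 244 and 293 in HoxA9 (245 ± 47.9, SD, n = 3), 143, 273 and 402 in HoxA9+Meis1 (273 ± 130, SD, n = 3), 118, 211 and 104 in NUP98-NSD1 (144 ± 58.1, SD, n = 3) and 63.5 in MLL-ENL. The 3 clone groups overlapped, MLL-ENL lay below all other arrays, and no fold is given since all values but 1 lay below the tested level.

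**Figure D1:**
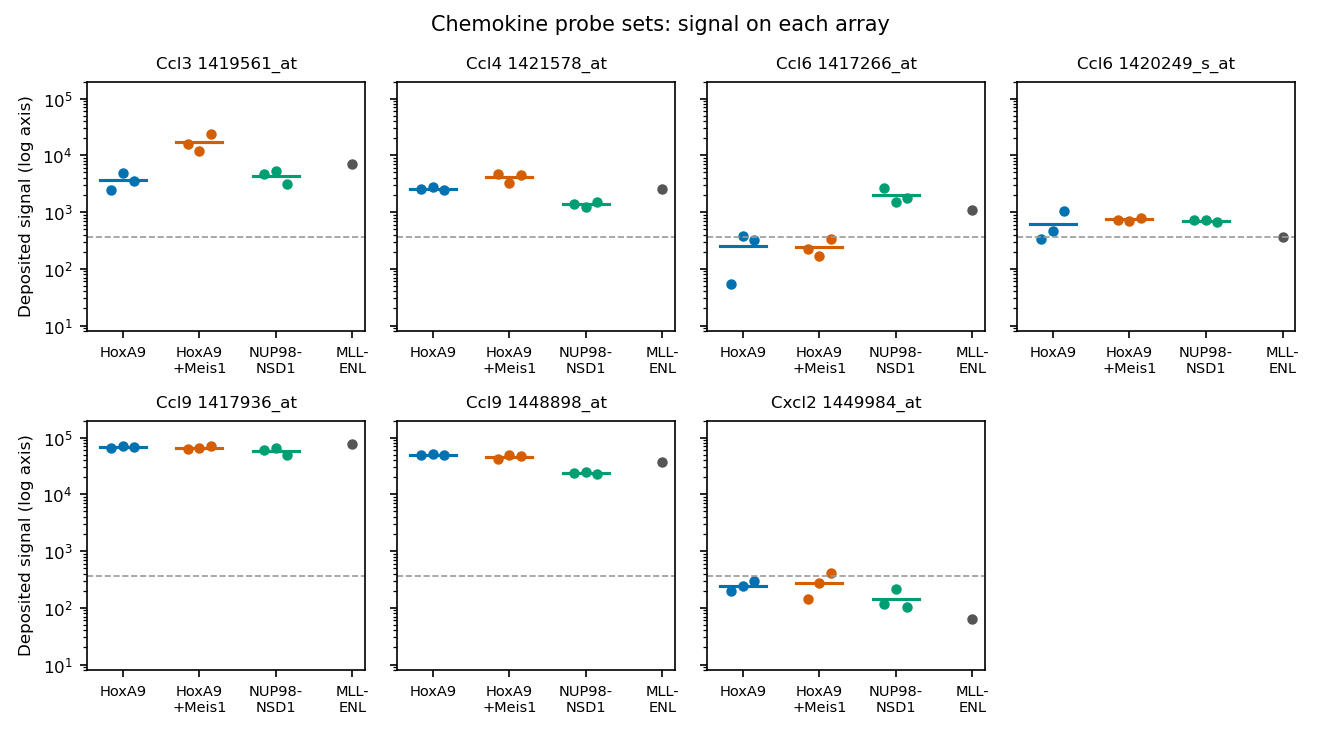
Deposited signal of each ligand probe set on a log axis, with 1 point per array and a bar at the mean of each group of 3 clones; the dashed line is the level of 369. The HoxA9+Meis1 clones of Ccl3 lie above all other arrays, the NUP98-NSD1 clones lie lowest for Ccl4 and for Ccl9 on 1448898_at, and all Cxcl2 arrays but 1 lie under the line.

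Among the receptors, Cx3cr1, the fractalkine receptor of monocytes and their progenitors, was higher with Meis1 added to HoxA9. On 1450020_at it read 458, 962 and 737 in HoxA9 (719 ± 253, SD, n = 3), 4600, 5098 and 1593 in HoxA9+Meis1 (3764 ± 1896, SD, n = 3), 2175, 1153 and 798 in NUP98-NSD1 (1375 ± 715, SD, n = 3) and 2797 in MLL-ENL. The HoxA9+Meis1 clones lay above the HoxA9 clones without overlap, clone 3 lying well below the other two, and the NUP98-NSD1 clones overlapped both groups. On the dimmer 1450019_at it read 52.1, 70.2 and 196 in HoxA9, 1478, 2353 and 913 in HoxA9+Meis1, 821, 417 and 458 in NUP98-NSD1 and 652 in MLL-ENL, and there the 3 clone groups did not overlap. HoxA9+Meis1 exceeded HoxA9 4.69-fold on 1450020_at (log2 difference 2.23 ± 0.48 SE, adjusted p = 0.0183) and at least 3.75-fold on 1450019_at (adjusted p = 0.00177). The first call was lost when any of 4 clones was left out (HoxA9 clone 1, log2 difference 1.95, adjusted p = 0.0585; HoxA9 clone 3, 2.28, 0.0509; HoxA9+Meis1 clone 1, 2.0, 0.0803; HoxA9+Meis1 clone 2, 1.93, 0.0824) and with no intensity trend (0.0728). NUP98-NSD1 exceeded HoxA9 at least 1.43-fold on 1450019_at (adjusted p = 0.00811), and on 1450020_at its log2 difference of 0.84 was not called (adjusted p = 0.205). NUP98-NSD1 lay below HoxA9+Meis1 by -1.38 ± 0.48 SE in log2 on 1450020_at (adjusted p = 0.0485) and by -1.39 on 1450019_at (adjusted p = 0.0523), either side of the threshold. The first of these was lost under 11 alternatives, among them leaving out HoxA9+Meis1 clone 1 (-1.16, 0.153) or clone 2 (-1.08, 0.168) and NUP98-NSD1 clone 2 (-1.32, 0.114) or clone 3 (-1.06, 0.143). The second passed without HoxA9+Meis1 clone 3 (adjusted p = 0.042) or NUP98-NSD1 clone 1 (0.041). The 10 genes of the monocyte and macrophage list, all tested, summed to between 51543 and 96004 per array in HoxA9, 104580 and 194034 in HoxA9+Meis1, 145564 and 262319 in NUP98-NSD1 and 243140 in MLL-ENL. These sums add probe sets of unlike brightness, and Lyz2 weighed most on the fusion arrays. It read 73579 to 159107 in NUP98-NSD1, 103012 in MLL-ENL, 4341 to 16726 in HoxA9+Meis1 and 15566 to 25932 in HoxA9. Of the 10, 3 were called higher and 0 lower in HoxA9+Meis1 against HoxA9, where 4.18% of all genes were higher and 4.48% lower. In NUP98-NSD1 against HoxA9, 4 were higher and 0 lower, where 13.1% and 18.2% of all genes were. Against HoxA9+Meis1, 2 were higher and 3 lower, where 14.2% and 18.5% were. The part of these genes in the Ccl3 and Cx3cr1 results was not tested.

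Ccr1, the receptor for Ccl3, Ccl6 and Ccl9, spread widely among the HoxA9 clones and was called in no comparison. On 1419609_at it read 512, 5644 and 10315 in HoxA9 (5490 ± 4903, SD, n = 3), 14289, 8231 and 13324 in HoxA9+Meis1 (11948 ± 3255, SD, n = 3), 5817, 5348 and 5426 in NUP98-NSD1 (5531 ± 251, SD, n = 3) and 1562 in MLL-ENL. The 1419610_at probe set read 12.4, 671 and 1422 in HoxA9, 2565, 1484 and 2289 in HoxA9+Meis1, 996, 690 and 463 in NUP98-NSD1 and 62.3 in MLL-ENL. Both probe sets put HoxA9 clone 1 lowest of all arrays and MLL-ENL next, and both put the HoxA9+Meis1 clones above every NUP98-NSD1 clone. HoxA9+Meis1 against HoxA9 gave log2 differences of 1.88 (95% interval 0.07 to 3.69, adjusted p = 0.241) and 2.55 (95% interval 0.34 to 4.77, adjusted p = 0.184). Without HoxA9 clone 1 these were 0.60 and 1.05, and without HoxA9 clone 3 they were 2.73 and 3.57. NUP98-NSD1 against HoxA9 gave 0.81 (adjusted p = 0.484) and 1.01 (adjusted p = 0.477), and without HoxA9 clone 1 the direction turned, to -0.46 and -0.50. NUP98-NSD1 against HoxA9+Meis1 gave -1.07 (adjusted p = 0.347) and -1.55 (adjusted p = 0.265) with the spread pooled over all groups, and passed with those 2 groups fitted alone (adjusted p = 0.00516 and 0.0104), where the spread of the HoxA9 clones does not enter. MLL-ENL against NUP98-NSD1 gave -1.80 (adjusted p = 0.457) and -2.92 (adjusted p = 0.302), and the first passed with those groups alone (0.00917).

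Ccr2, the receptor that lets monocytes leave the marrow, has 4 probe sets, which were not called alike. The brightest, 1421186_at, read 44210, 47178 and 45267 in HoxA9 (45552 ± 1504, SD, n = 3), 35688, 35491 and 37158 in HoxA9+Meis1 (36112 ± 911, SD, n = 3), 51065, 44548 and 37788 in NUP98-NSD1 (44467 ± 6639, SD, n = 3) and 76090 in MLL-ENL. MLL-ENL lay above all 9 clones and the HoxA9+Meis1 clones lay below all others. MLL-ENL exceeded NUP98-NSD1 1.72-fold (log2 difference 0.79 ± 0.14 SE, adjusted p = 0.0153), a call lost under quantile normalization (0.0701), with no intensity trend (0.0762) or with those groups alone (0.122). The difference of NUP98-NSD1 from HoxA9+Meis1, 0.29 ± 0.10 SE in log2, passed at 0.0482 and was lost under 11 alternatives, with adjusted p up to 0.146. Leaving out HoxA9+Meis1 clone 1 (0.12), clone 2 (0.123) or clone 3 (0.0798), or NUP98-NSD1 clone 1 (0.129) or clone 2 (0.107), each ended it.

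On 1421187_at Ccr2 read 22406, 24393 and 27793 in HoxA9 (24864 ± 2724, SD, n = 3), 13434, 21050 and 13083 in HoxA9+Meis1 (15856 ± 4502, SD, n = 3), 15911, 17783 and 17063 in NUP98-NSD1 (16919 ± 944, SD, n = 3) and 27177 in MLL-ENL. HoxA9 lay above both other clone groups. NUP98-NSD1 was lower than HoxA9 by -0.55 ± 0.16 SE in log2 (adjusted p = 0.0295), and HoxA9+Meis1 was lower than HoxA9 by -0.68 ± 0.16 SE (1.6-fold, adjusted p = 0.0328). The first was lost after centring arrays on a common median (-0.36, adjusted p = 0.193), with no intensity trend (0.0803) and without HoxA9 clone 2 (0.0694) or clone 3 (0.0991) or NUP98-NSD1 clone 1 (0.0815), clone 2 (0.0564) or clone 3 (0.0534). The second was lost after the same centring (0.101), with no intensity trend (0.128), with those groups alone (0.064) and without HoxA9 clone 2 (0.0918) or clone 3 (0.119) or HoxA9+Meis1 clone 1 (0.132) or clone 3 (0.105). The dimmer probe sets 1421188_at, with signals between 3187 and 8755, and 1460067_at, between 777 and 3257, were called in none of the 4 comparisons. For NUP98-NSD1 against HoxA9, 1421188_at ran the same way as 1421187_at (-0.83, adjusted p = 0.0568) and passed without HoxA9 clone 3 (-1.15, adjusted p = 0.0137), without NUP98-NSD1 clone 1 (-1.04, adjusted p = 0.039) and with the replicate number as a block (0.0396).

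Cxcr2, the receptor by which neutrophils respond to Cxcl1 and Cxcl2, passed the level of 369 in NUP98-NSD1 and in no other group, so that it was tested through those 3 arrays alone and had to differ from the others. Its probe set 1421734_at read 195, 207 and 212 in HoxA9 (205 ± 8.5, SD, n = 3), 230, 199 and 218 in HoxA9+Meis1 (216 ± 15.5, SD, n = 3), 1486, 816 and 1345 in NUP98-NSD1 (1216 ± 354, SD, n = 3) and 154 in MLL-ENL. It was at least 3.02-fold higher in NUP98-NSD1 than in HoxA9 (adjusted p = 0.00121), than in HoxA9+Meis1 (adjusted p = 0.00125) and than in MLL-ENL (adjusted p = 0.0188, or 0.0704 with those groups alone). HoxA9+Meis1 and HoxA9, both below that level, differed by 0.06 in log2 (adjusted p = 0.97). With no filter on low signals, the adjusted p for NUP98-NSD1 was 0.00172 against HoxA9, 0.0018 against HoxA9+Meis1 and 0.0281 for MLL-ENL against it. The neutrophil list moved the same way: 7 of its 8 genes were tested, and they summed to between 437510 and 981238 per array in NUP98-NSD1, 14840 and 73671 in HoxA9, 10148 and 94690 in HoxA9+Meis1 and 18536 in MLL-ENL. Of those 7, 7 were called higher in NUP98-NSD1 than in HoxA9, 6 higher than in HoxA9+Meis1 and 4 higher than in MLL-ENL, where 13.1%, 14.2% and 2.93% of all genes were called in those directions. Camp, 1 of the 7, was tested through the NUP98-NSD1 arrays alone. The mast cell and basophil list, 6 of 7 genes tested, also summed highest in NUP98-NSD1, between 56359 and 218855 against 3119 to 23241 on the other arrays. The part of these cell types in the Cxcr2 result was not tested.

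Cxcr4, the receptor for Cxcl12 that retains progenitors in the marrow, was bright on all arrays and moved little. Its probe set 1448710_at read 18155, 21687 and 20432 in HoxA9 (20091 ± 1791, SD, n = 3), 32531, 30778 and 23867 in HoxA9+Meis1 (29059 ± 4581, SD, n = 3), 26880, 29078 and 40934 in NUP98-NSD1 (32297 ± 7560, SD, n = 3) and 22645 in MLL-ENL. The HoxA9 clones lay below all other arrays, and the HoxA9+Meis1 and NUP98-NSD1 clones overlapped. Cxcr4 was 1.58-fold higher in NUP98-NSD1 than in HoxA9 (log2 difference 0.66 ± 0.16 SE, adjusted p = 0.0126), and the call held without any one clone, at adjusted p of up to 0.0439. HoxA9+Meis1 was 0.52 above HoxA9 in log2 and was not called (adjusted p = 0.0895). It passed with those groups alone (0.0452) and without HoxA9+Meis1 clone 3 (0.66, adjusted p = 0.0464). Neither NUP98-NSD1 against HoxA9+Meis1 (0.14, adjusted p = 0.543, and -0.04 without NUP98-NSD1 clone 3) nor MLL-ENL against NUP98-NSD1 (-0.49, adjusted p = 0.289) was called.

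**Figure D2:**
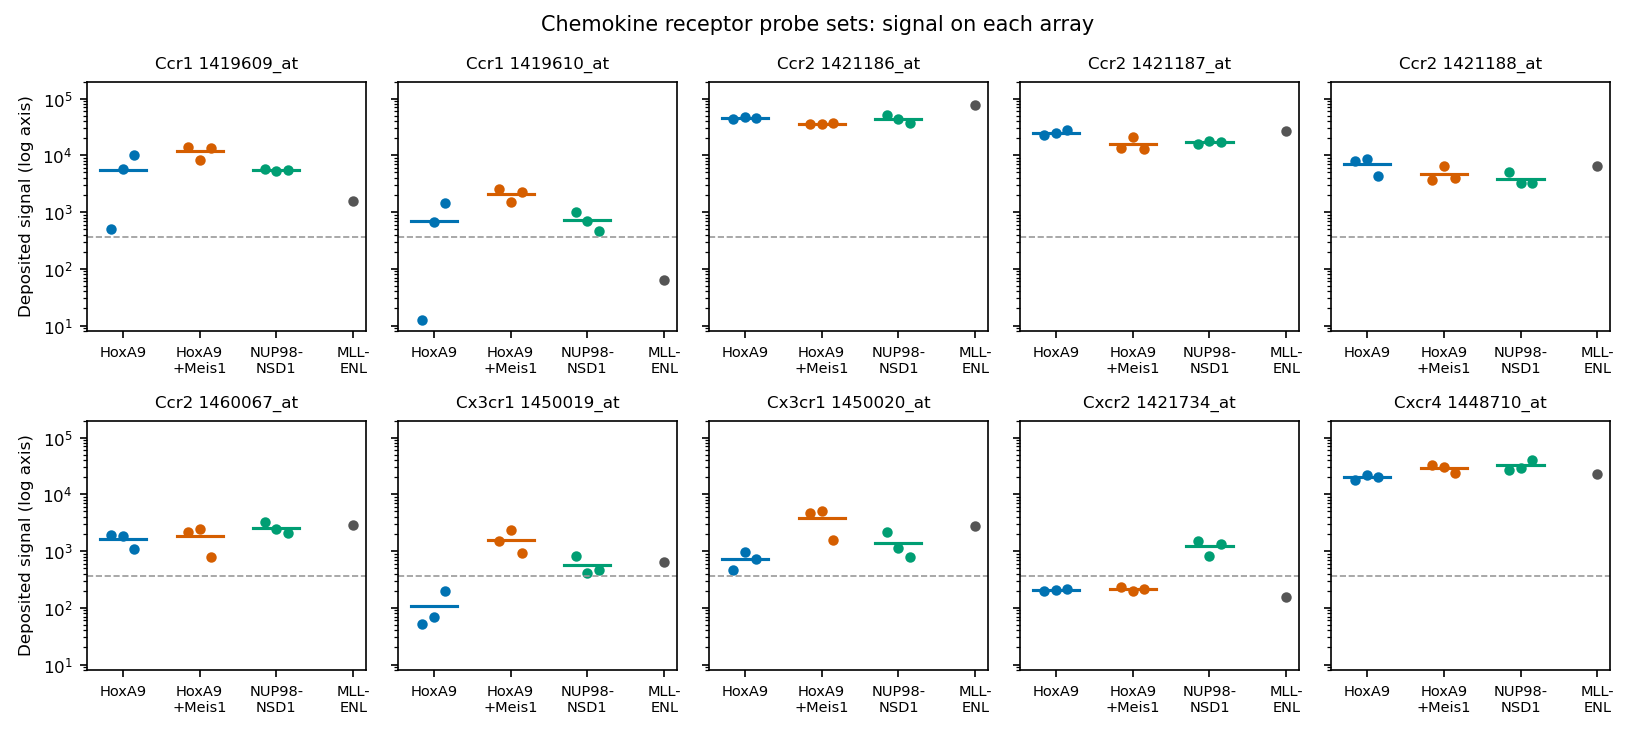
Deposited signal of each receptor probe set on a log axis, with 1 point per array and a bar at the mean of each group of 3 clones; the dashed line is the level of 369. The NUP98-NSD1 clones of Cxcr2, between 816 and 1486, are the only arrays of that probe set above the line, and the HoxA9 clones of Ccr1 on 1419609_at spread from 512 to 10315.

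Counted over the probe sets tested, 7 of 16 (43.8%) were called between NUP98-NSD1 and HoxA9, where 29.0% of all 30945 were called (12.3% higher, 16.7% lower). The 4 higher were Ccl6, Cx3cr1, Cxcr2 and Cxcr4, and the 3 lower were Ccl4, Ccl9 and Ccr2. The median log2 difference over the 16 was 0.50 against -0.14 over all. Between NUP98-NSD1 and HoxA9+Meis1, 7 of 16 (43.8%) were called against 30.9% of all (13.8% higher, 17.2% lower), 3 higher (Ccl6, Ccr2 and Cxcr2) and 4 lower (Ccl3, Ccl4, Ccl9 and Cx3cr1), with a median of -0.26 against -0.13. These comparisons share the NUP98-NSD1 clones. Between HoxA9+Meis1 and HoxA9, 4 of 16 (25.0%) were called against 6.89% of all (3.40% higher, 3.49% lower), Ccl3 and both Cx3cr1 probe sets higher and Ccr2 lower, with a median of 0.29 against -0.02. Between MLL-ENL and NUP98-NSD1, 3 of 16 (18.8%) were called against 3.98% of all (1.18% higher, 2.80% lower), Ccl9 and Ccr2 higher and Cxcr2 lower, with a median of 0.34 against -0.07. The 16 are few, chosen genes with up to 4 probe sets each, so these shares are given with no test. Fitted with 1 probe set per gene, 3, 4, 3 and 2 of the 9 genes were called in the 4 comparisons in that order. That fit called 4483, 4608, 1376 and 683 of all 14233 genes. In the main fit, 31.4%, 32.6%, 8.66% and 4.62% of all 14233 genes were called on their brightest probe set. Cxcr2 was among the 16 through the group where it was high. Without it, 6, 6, 4 and 2 of 15 were called in the 4 comparisons in that order. The members' ligands and receptors showed no common direction: within NUP98-NSD1 against HoxA9, each class held both higher and lower calls.

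**Figure D3:**
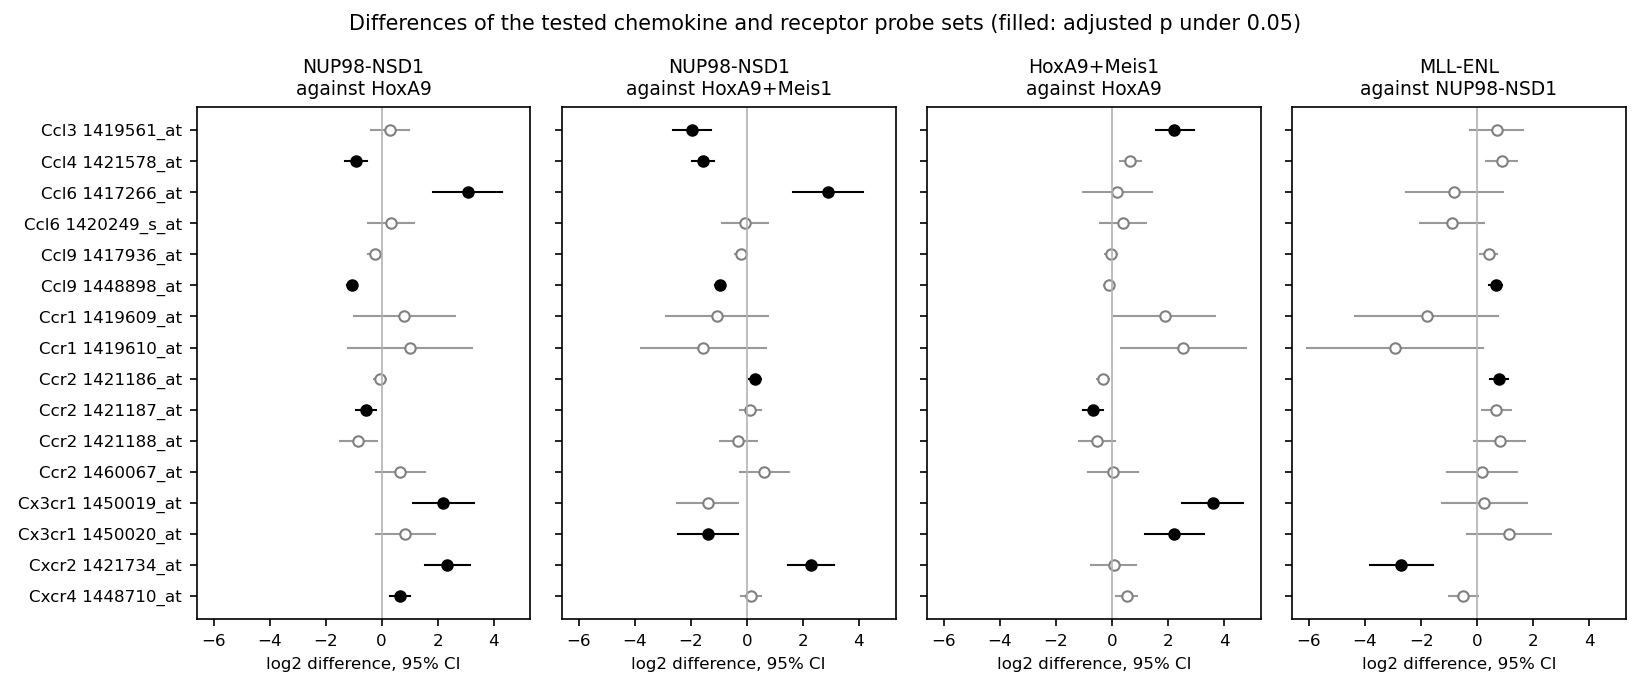
Log2 difference of each tested member probe set in the 4 comparisons, with 95% intervals from limma; filled points are called at an adjusted p under 0.05. Ccl3 and Cx3cr1 lie right of zero for HoxA9+Meis1 against HoxA9, and Cxcr2 lies right of zero for NUP98-NSD1 against both HoxA9 groups and left of it for MLL-ENL against NUP98-NSD1.

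For the 4 members whose brightest probe set spanned at least 2 log2 units over the 10 arrays, the most similar profiles were found among the 14233 genes with a tested probe set, as the smallest root mean square difference between mean-centred log2 profiles over the 10 arrays. Ccl3, with a span of 3.28, was nearest to Abcb1b, a drug efflux pump (0.43), Zfp36, an RNA-binding protein of cytokine messages (0.50), and Fbxw4 (0.51), where the median gene lay at 1.09. Cx3cr1, with a span of 3.39, was nearest to Crem (0.49), Ptpro (0.52) and Tmem229b (0.52), with a median of 1.17. Cxcr2, with a span of 3.03, was nearest to Ces2g (0.31), Tmed3 (0.34) and Id2 (0.35), with a median of 1.22. Ccr1, with a span of 4.72, was nearest to Itgal, an integrin chain of leukocytes (0.51), Ighg3 (0.67) and Tnf (0.72), with a median of 1.43. These distances describe the 10 arrays, which share groups and array sets. The nearest of 14233 genes lie under the median by selection, and their closeness was not tested. Cxcr2 and Ces2g both passed the level for testing on the NUP98-NSD1 arrays alone.

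Of the remaining chemokine ligands, 31 were listed, 30 had a probe set and 17 were tested, each by its brightest probe set. In NUP98-NSD1 against HoxA9, 1 was higher and 4 lower among the 17, against 13.1% of all 14233 genes higher and 18.2% lower. Pf4, the platelet chemokine, was the higher one, and Ccl25, Ccl28, Cx3cl1 and Cxcl1 were lower. Against HoxA9+Meis1, a comparison with the same NUP98-NSD1 clones, Pf4 was higher and Ccl25, Ccl28, Cx3cl1 and Cxcl1 lower, where 14.2% of all genes were higher and 18.5% lower. Without HoxA9 clone 1, Ccl28 lost its first call (adjusted p = 0.117), and without HoxA9 clone 2 so did Cx3cl1 (0.138). Without HoxA9+Meis1 clone 2, Ccl28 (0.13) and Cx3cl1 (0.162) lost the second, and without clone 1 of that group Ccl25 did (0.0679). For these and the pathway genes below, the omission with the highest adjusted p is given, and leaving out other clones also ended most of these calls. Pf4 (1448995_at) read 756, 744 and 611 in HoxA9, 643, 861 and 602 in HoxA9+Meis1, 9630, 7324 and 1833 in NUP98-NSD1 and 401 in MLL-ENL. The NUP98-NSD1 clones lay above all others, and clone 3 lay far below the other two. Pf4 was 6.96-fold higher in NUP98-NSD1 than in HoxA9 (log2 difference 2.80 ± 0.49 SE, adjusted p = 0.0025; 3.52 without NUP98-NSD1 clone 3) and 7.02-fold higher than in HoxA9+Meis1 (log2 difference 2.81, adjusted p = 0.00217; 3.54 without that clone). It was lower in MLL-ENL than in NUP98-NSD1 by -3.56 in log2 (adjusted p = 0.0213), -4.28 without NUP98-NSD1 clone 3, and not called without clone 2 (-3.29, adjusted p = 0.0614), with no intensity trend (0.0576) or with those groups alone (0.0929). Summed megakaryocyte and erythroid markers, 4 of 6 tested, ran from 4065 to 11516 in NUP98-NSD1 and from 4747 to 5665 in both HoxA9 groups, and their part in the Pf4 result was not tested. Cxcl1, a ligand of Cxcr2, was lower in NUP98-NSD1 on 1441855_x_at, with log2 differences of -0.86 from HoxA9 (adjusted p = 0.00175) and -1.16 from HoxA9+Meis1 (adjusted p = 0.000322), and held without any one clone. Its other tested probe set, 1457644_s_at, was called lower against HoxA9 (-1.23, adjusted p = 0.0445) and not against HoxA9+Meis1 (-1.12, adjusted p = 0.0593). The other tested Ccl25 probe set, 1418777_at, was called in neither comparison (-0.81, adjusted p = 0.163, and -0.16, adjusted p = 0.794). No ligand of the 17 was called between HoxA9+Meis1 and HoxA9 by limma, where 2 were higher and 0 lower at an unadjusted p under 0.05 and 8.66% of all genes were called (4.18% higher, 4.48% lower). Between MLL-ENL and NUP98-NSD1, 1 (Pf4, lower) was called, where 4.62% of all genes were (1.69% higher, 2.93% lower). The median log2 difference of the 17 ligands was 0.03 for NUP98-NSD1 against HoxA9 and -0.60 against HoxA9+Meis1, 0.04 for HoxA9+Meis1 against HoxA9 and -0.03 for MLL-ENL against NUP98-NSD1, where the medians of all genes were -0.14, -0.13, -0.02 and -0.02.

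Of the other chemokine receptors, 18 were listed, 16 had a probe set and 12 were tested. In NUP98-NSD1 against HoxA9, 1 was higher (Ackr4, a decoy receptor) and 2 lower (Ackr1, also a decoy, and Xcr1), where 31.4% of all genes were called (13.1% higher, 18.2% lower). Ackr4 and Ackr1 lost their calls without HoxA9 clone 3 (adjusted p = 0.0876 and 0.0709). Against HoxA9+Meis1, 0 were higher and 3 lower (Ackr1, Ccr4 and Xcr1), where 32.6% of all genes were called, and at an unadjusted p under 0.05 limma gave 0 higher and 4 lower. Ackr1 lost this call without HoxA9+Meis1 clone 2 (0.139). Xcr1, a dendritic cell receptor, was lower in NUP98-NSD1 by at least 1.47-fold than in HoxA9 (adjusted p = 0.0114). Below HoxA9+Meis1 it lay at least 1.7-fold (adjusted p = 0.0065). Ccr4 lay below HoxA9+Meis1 by at least 1.44-fold (adjusted p = 0.0165), and was not called without HoxA9+Meis1 clone 2 (log2 difference -2.04, adjusted p = 0.0726). None was called between HoxA9+Meis1 and HoxA9 by limma, with 0 at an unadjusted p under 0.05 in either direction and 8.66% of all genes called. Between MLL-ENL and NUP98-NSD1, where 4.62% of all genes were called, 1 was, Cxcr5, at least 1.6-fold lower (adjusted p = 0.0158, and not called at 0.166 with those groups alone). The median log2 difference of the 12 receptors was -0.50, -0.36, 0.06 and -0.42 in the 4 comparisons in that order.

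The signalling proteins below the receptors were called higher more often than lower in NUP98-NSD1 on the brightest probe set of each gene, and about equally often on their other probe sets. Of 22 listed, 21 had a probe set and 21 were tested. In NUP98-NSD1 against HoxA9, 7 were higher and 1 lower, the largest changes being in Arrb2, Plcb2, Dock2, Pik3cg and Gnai2 (higher) and Plcb3 (lower), with a median log2 difference of 0.38 against -0.14 over all genes, of which 13.1% were higher and 18.2% lower. Against HoxA9+Meis1, 11 were higher and 2 lower, the largest changes being in Grk3, Grk5, Arrb2, Pik3r5, Dock2 and Plcb2 (all higher), with a median of 0.33 against -0.13 over all genes, of which 14.2% were higher and 18.5% lower. The 19 other probe sets tested for these genes gave 3 higher and 3 lower against HoxA9 and 5 higher and 4 lower against HoxA9+Meis1. Of all 30945 probe sets, 12.3% were higher and 16.7% lower against HoxA9, and 13.8% and 17.2% against HoxA9+Meis1. Without HoxA9 clone 2, Plcb2 lost its call against HoxA9 (adjusted p = 0.122), and without HoxA9 clone 1 so did Plcb3 (0.0836). Against HoxA9+Meis1, Plcb2 and Grk5 lost theirs without clone 1 of that group (0.119 and 0.053) and Pik3r5 without clone 3 (0.14). The list holds genes expressed in most leukocytes, and its members were chosen with earlier results known, so no test was made of it. Arrb2, an arrestin that ends receptor signalling, was 3.08-fold higher in NUP98-NSD1 than in HoxA9 (log2 difference 1.62 ± 0.24 SE, adjusted p = 0.000985). Its log2 difference from HoxA9+Meis1 was 1.23 (adjusted p = 0.00395). Gnai2, the G protein subunit on which most chemokine receptors act, was higher by 0.63 (adjusted p = 0.000892) and 0.56 (adjusted p = 0.00146). For both genes, the other tested probe set was called in the same direction. The other tested Pik3cg probe set, 1422708_at, was called in neither comparison (0.24, adjusted p = 0.277, and 0.07, adjusted p = 0.779). Dock2, a Rac activator of leukocyte migration, gave opposite calls: 0.81 (adjusted p = 0.0043) and 0.90 (adjusted p = 0.00221) on 1422808_s_at, and -0.95 (adjusted p = 0.027) and -0.96 (adjusted p = 0.0244) on 1438334_at. Vav1, a Rac activator named after its values were seen, did too: 0.45 (adjusted p = 0.023) and 0.44 (adjusted p = 0.0244) on its brightest probe set, and -0.62 (adjusted p = 0.00289) and -0.75 (adjusted p = 0.000869) on 1440300_at.

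Grk3, a kinase that desensitizes chemokine receptors such as Cxcr4, fell in the HoxA9+Meis1 clones. On 1434450_s_at it read 2773, 4357 and 5277 in HoxA9 (4136 ± 1266, SD, n = 3), 386, 709 and 717 in HoxA9+Meis1 (604 ± 189, SD, n = 3), 5408, 4257 and 4343 in NUP98-NSD1 (4669 ± 641, SD, n = 3) and 2630 in MLL-ENL. The HoxA9+Meis1 clones lay below all 7 other arrays. Grk3 was 6.56-fold lower in HoxA9+Meis1 than in HoxA9 (log2 difference -2.71 ± 0.28 SE, adjusted p = 0.000318) and 7.61-fold higher in NUP98-NSD1 than in HoxA9+Meis1 (log2 difference 2.93 ± 0.28 SE, adjusted p = 8.49e-05), while NUP98-NSD1 and HoxA9 were not called apart (0.21, adjusted p = 0.592, and -0.05 without HoxA9 clone 1). The other 2 tested Grk3 probe sets gave the same calls, lower in HoxA9+Meis1 than in HoxA9 by 3.79-fold or more (adjusted p = 2e-05) and 2.82-fold or more (adjusted p = 0.00092). They were higher in NUP98-NSD1 than in HoxA9+Meis1 by 4.74-fold or more (adjusted p = 8.5e-06) and 4.43-fold or more (adjusted p = 0.000102). In HoxA9+Meis1 against HoxA9, 2 of the 21 signalling genes were higher (Elmo1 and Gng2) and 2 lower (Arrb1 and Grk3) on their brightest probe sets. Of all genes, 4.18% were higher and 4.48% lower. The 19 other probe sets of these genes gave 1 higher and 3 lower, where 3.40% and 3.49% of all 30945 probe sets were. The other tested Gng2 probe sets also ran higher and were not called (1.9, 1.71 and 1.69, adjusted p = 0.22, 0.191 and 0.059). The same held for Elmo1 (0.53 and 0.28, adjusted p = 0.0602 and 0.761). Without HoxA9+Meis1 clone 2, Elmo1 (adjusted p = 0.0892) and Gng2 (0.14) were not called, and without HoxA9 clone 2 neither was Arrb1 (0.0773). In MLL-ENL against NUP98-NSD1, limma called 0 of 21, where 4.62% of all genes were called. At an unadjusted p under 0.05, limma gave 1 higher and 1 lower.

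**Figure D4:**
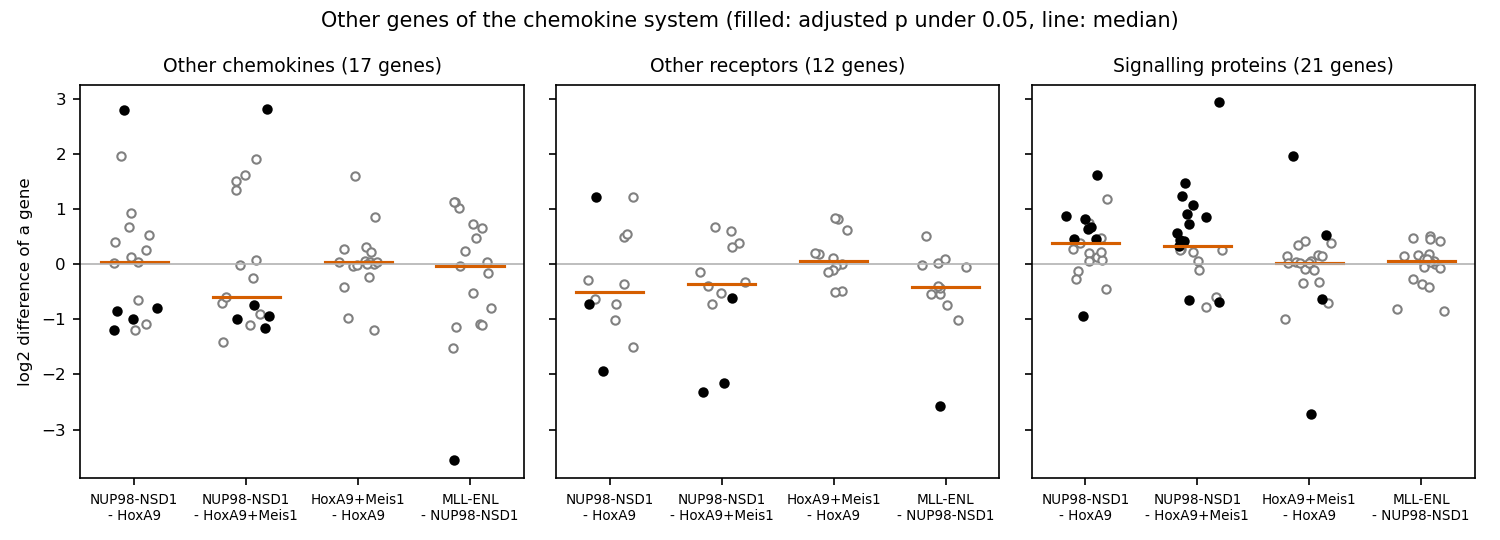
Log2 difference of each tested gene of the 3 pathway lists in the 4 comparisons, by its brightest probe set, with a bar at the median of each list and a grey line at zero; filled points are called. Grk3 is the lowest signalling gene in HoxA9+Meis1 against HoxA9, at -2.71, and Pf4 the highest ligand in NUP98-NSD1 against HoxA9, at 2.80.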

How the data were processed

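RNA of 10 cultures was hybridized to Affymetrix Mouse Genome 430 2.0 arrays. The deposited table holds 1 linear signal intensity per probe set and array, scaled by the authors so that the mean after trimming 2% at each end is 2500.01 to 2500.02, as computed from the values; which software and background step made them is not given in the sources used here. Groups and clone numbers come from the sample titles. Signals were converted to log2(signal + 32), and probe sets above 369.318 on 3 of 10 arrays were kept. limma 3.58.1 in R 4.3.3 fitted 4 group means over 10 arrays with an intensity trend, two-sided, with Benjamini-Hochberg adjustment over 30945 probe sets, and was tested on simulated data first. Array number limits the precision. Probe sets were named from the platform annotation (34945 with 1 symbol, 932 with several, 9160 with none, beside 64 controls), with 34741 symbols updated through Entrez identifiers in RefSeq tables. Named were all members, up to 6 called genes per pathway list and comparison with the largest change, and the 3 genes nearest each member spanning at least 2 log2 units. The members, lists and tests were chosen with earlier results of these data known. Alternatives changed the offset (1 or 100), filter, scaling, probe set choice, trend, groups fitted and replicate block, or left out a clone.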

Additional observations from a re-analysis of the deposited data

How the results depend on the processing

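Over the alternatives run, the sign turned in 51 of 2606 values of members and named genes, 0 of them of a called difference. With 1 probe set per gene, 9 member genes were tested in place of 16 probe sets, and 14233 genes in place of 30945 probe sets. Calls among members went from 7 to 3 (NUP98-NSD1 against HoxA9), 7 to 4 (against HoxA9+Meis1), 4 to 3 (HoxA9+Meis1 against HoxA9) and 3 to 2 (MLL-ENL against NUP98-NSD1). Calls over all went from 8979 to 4483, 9575 to 4608, 2131 to 1376 and 1231 to 683 in that order. With no intensity trend, HoxA9+Meis1 against HoxA9 kept 2 of 4 member calls and 1005 of all, and MLL-ENL against NUP98-NSD1 1 of 3. Fitting the latter groups alone gave 1 member call and 517 of all. Without probe sets of _x, _s or _a suffix, HoxA9+Meis1 against HoxA9 gave 1373. Leaving out a clone gave, for members and all, 6 to 7 and 6113 to 9359 for NUP98-NSD1 against HoxA9, 5 to 7 and 6559 to 9276 against HoxA9+Meis1, 2 to 4 and 1132 (without HoxA9+Meis1 clone 2) to 1820 for HoxA9+Meis1 against HoxA9, and 3 to 4 and 676 (without NUP98-NSD1 clone 2) to 2872 (without clone 3) for MLL-ENL against NUP98-NSD1. Centring on a common median raised the median difference of all probe sets by 0.19, 0.15, 0.04 and 0.29 in log2, in the order above, and moved the share of calls that were higher from 42.5% to 64.3% (4453 higher, 2472 lower), 44.5% to 61.0% (4499, 2876), 49.3% to 58.2% (1245 called) and 29.7% to 40.2% (295, 438; 733 called). Among pathway genes it ended calls of Ccl28, Cx3cl1, Ackr1 and Plcb3 (NUP98-NSD1 against HoxA9), Ccl25, Cx3cl1, Ackr1 and Elmo1 (against HoxA9+Meis1) and Arrb1 and Elmo1 (HoxA9+Meis1 against HoxA9). The cause of the other changes was not tested. Deviations of same-numbered clones correlated at -0.064 to 0.043, and those of other-numbered clones at -0.054 to 0.051. No pairing by number was seen, which does not exclude one, and the labels do not say how the clones relate. With the replicate block, member calls were 8, 6 and 4 and all calls 8318, 8783 and 1901 in the first 3 comparisons. For MLL-ENL no paired analysis was possible because it has 1 array. Dim signals, as of Cxcl2, limit what can be compared.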
